A study of Mus musculus with 12 samples.

Results

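Bleomycin (bleo) breaks DNA strands, and the transcription factor p53 is the best known switch of the transcriptional answer to such breaks. The RNA levels of Trp53, the gene of p53 itself, and of 9 of its target genes, Cdkn1a, Mdm2, Ccng1, Trp53inp1, Sesn2, Eda2r, Zmat3, Phlda3 and Aen, were followed in Pdgfra+ cells sorted from mouse lung. The 10 genes were named as known members of the p53 pathway by a rule that used no measured value, although earlier results of these data were known, and all 10 were among the 17418 genes, of 40760 counted, that passed the filter on low counts. The RNA-seq libraries numbered 12, with 3 in each of WT vehicle, WT bleo, Pear1-/- vehicle and Pear1-/- bleo. All mice were young adult males on the C57BL/6 background. WT mice carried no engineered allele. Per the study's methods, the Pear1-/- mice carried on both copies a knockout-first allele. Its inserted cassette is meant to trap the Pear1 transcript in every cell type of the body rather than in Pdgfra+ cells alone. Vehicle mice received the carrier without bleo, and bleo mice inhaled bleo through the trachea. The dose and the day of harvest of these particular libraries were not given in the sources used here. The cells were taken by flow cytometry for surface CD140a, the product of Pdgfra, which marks lung fibroblasts. How many mice stood behind a library, and whether the 3 libraries of a group came from separate animals, was not stated, so p-values measure the spread between libraries, which may be technical.

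In unstressed cells p53 is made and destroyed continuously, because Mdm2, a ubiquitin ligase, marks it for degradation. Strand breaks activate the kinases ATM and ATR, p53 escapes Mdm2, and it binds pairs of consensus half-sites near its target genes. Control of p53 is therefore largely at the protein level, which RNA-seq does not see. The targets fall into groups by role. Mdm2 and Ccng1, which encodes cyclin G1, act back on p53. Cdkn1a encodes p21, the inhibitor of cyclin-dependent kinases through which p53 halts the cell cycle. Trp53inp1, Zmat3, Phlda3, Aen and Eda2r have been tied to cell death and to growth control, and Sesn2 to restraint of the mTORC1 growth pathway.

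The sequence in front of the start sites was read from RefSeq promoter windows of GRCm38.p6, which run from 250 bases before to 50 bases after a start. Windows were matched by symbol for 8 of the 10 genes, 10 windows in all, and Trp53inp1 and Zmat3 had none. Cdkn1a had 2 separate windows and Aen 2 overlapping ones. The p53 consensus half-site, a palindrome that reads alike on both strands, was found without mismatch in a window of 5 of these 8 genes, against 9.55% of the 27025 genes with a window. A full site was taken as 2 half-sites side by side with at most 2 mismatches in all, keeping the C and G at the core of each one. Such a site was in a window of 2 of the 8 genes, against 0.392% of all genes with one. They are Cdkn1a and Ccng1, whose 250 upstream bases are shown because both genes rose with bleo in both genotypes, with the full site in capitals. The first lies on the plus strand at chr17:29090729-29090978 and the second on the minus strand at chr11:40755287-40755536.
Cdkn1a: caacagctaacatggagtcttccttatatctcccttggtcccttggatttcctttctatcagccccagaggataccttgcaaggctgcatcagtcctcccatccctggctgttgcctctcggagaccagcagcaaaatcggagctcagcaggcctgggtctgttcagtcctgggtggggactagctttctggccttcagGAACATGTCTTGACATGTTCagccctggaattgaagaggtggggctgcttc
Ccng1: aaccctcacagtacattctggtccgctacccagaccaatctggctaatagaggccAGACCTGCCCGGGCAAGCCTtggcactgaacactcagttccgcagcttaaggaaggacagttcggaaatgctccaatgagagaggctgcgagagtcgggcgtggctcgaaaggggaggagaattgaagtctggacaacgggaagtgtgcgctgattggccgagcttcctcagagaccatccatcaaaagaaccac
The Cdkn1a site starts 51 bases and the Ccng1 site 195 bases before the annotated start of its window, and each holds 1 mismatch to the consensus. The other Cdkn1a window, of a start further downstream (chr17:29093519-29093818), holds neither a perfect half-site nor a full site. The match is a description of the letters, and binding of p53 was not measured in these libraries. A window without a match says only that these letters are not in those 300 bases, since many p53 sites lie further off or inside introns.

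Between 6702948 and 10447101 reads per library were counted on genes, and a floor of 3 counts corresponded to between 0.287 and 0.448 CPM, for counting error only. Levels are given as normalized counts, the deposited read counts divided by a size factor per library. Pairs of libraries of one group differed by a chi-square of counts per degree of freedom between 1.35 and 4.82, where counting noise alone gives 1, except for WT vehicle replicate 2. That library was at 21.2 and 21.8 from the other WT vehicle libraries but at 1.73, 2.13 and 2.67 from the Pear1-/- vehicle libraries, so the results on the 10 genes and on the lists that rest on WT vehicle are also given without it. Pear1 itself had 519 to 576 normalized counts in WT vehicle and 501 to 547 in the vehicle libraries labelled Pear1-/-, a log2 difference of -0.08 (adjusted p = 0.490). After bleo it had 239 to 266 in WT and 344 to 372 in the libraries labelled Pear1-/-, where it was thus higher, by 0.48 on the log2 scale (adjusted p = 7.54e-05). The count per gene thus did not bear out the label Pear1-/-. Counts per exon were not examined, and the reason was not tested. Group names are the deposited labels throughout. Pdgfra was detected in every library, at 4125 to 4802 normalized counts with vehicle, 1338 to 1394 in WT bleo and 2370 to 2403 in Pear1-/- bleo. Leukocyte RNA was present too, since Ptprc, the gene of CD45, stood at 3010 to 7727 normalized counts. Summed over 8 leukocyte markers, the level was 14122 to 19728 in WT vehicle and 55919 to 57883 in WT bleo, and 19425 to 20920 and 28188 to 28550.1 in the corresponding Pear1-/- groups. In such bulk samples, fewer cells of a type and less RNA per cell cannot be told apart.

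In WT cells, bleo raised Cdkn1a 2.32-fold and Trp53, Mdm2, Ccng1 and Aen by less than 1.5-fold, while Trp53inp1 fell 2.95-fold and Eda2r 1.40-fold. Sesn2, Zmat3 and Phlda3 did not pass the test. So 5 of the 10 genes were higher and 2 lower at an adjusted p under 0.05 in edgeR's quasi-likelihood test, where 31.4% of all 17418 genes were higher and 36.5% lower. By the stricter criterion of the study, which asks also for a fold over 2, Cdkn1a and Trp53inp1 passed, against 33.8% of all genes in either direction. The median log2 fold change of the 10 genes was 0.30, and that of all genes was -0.07. Without WT vehicle replicate 2 the count was 6 higher and 2 lower, Sesn2 being the added gene, where 31.7% of the 20405 genes then tested were higher and 44.7% lower. In that fit the log2 fold changes were 1.33 for Cdkn1a, 0.65 for Trp53, 0.61 for Mdm2, 0.50 for Ccng1, 0.32 for Aen and -0.45 for Eda2r, all called, and 0.19 for Zmat3 (adjusted p = 0.204) and 0.082 for Phlda3 (adjusted p = 0.340).

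In Pear1-/- cells, bleo raised 7 of the 10 genes and lowered 1. Trp53, Cdkn1a, Mdm2 and Ccng1 rose here too, and Zmat3, Phlda3 and Aen rose 2.22-fold, 2.01-fold and 2.0-fold. Trp53inp1 fell 1.94-fold, and Sesn2 and Eda2r did not pass the test. Of all genes 29.1% were higher and 33.1% lower in this comparison, which shares no library with the WT one. Past a fold of 2 were 4 genes, Cdkn1a, Zmat3, Phlda3 and Aen, against 27.7% of all genes, but 3 of them sat close to the limit and leaving out 1 library could reduce the 4 to 1. The median log2 fold change of the 10 genes was 0.41, beside -0.05 for all genes.

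**Figure D1:**
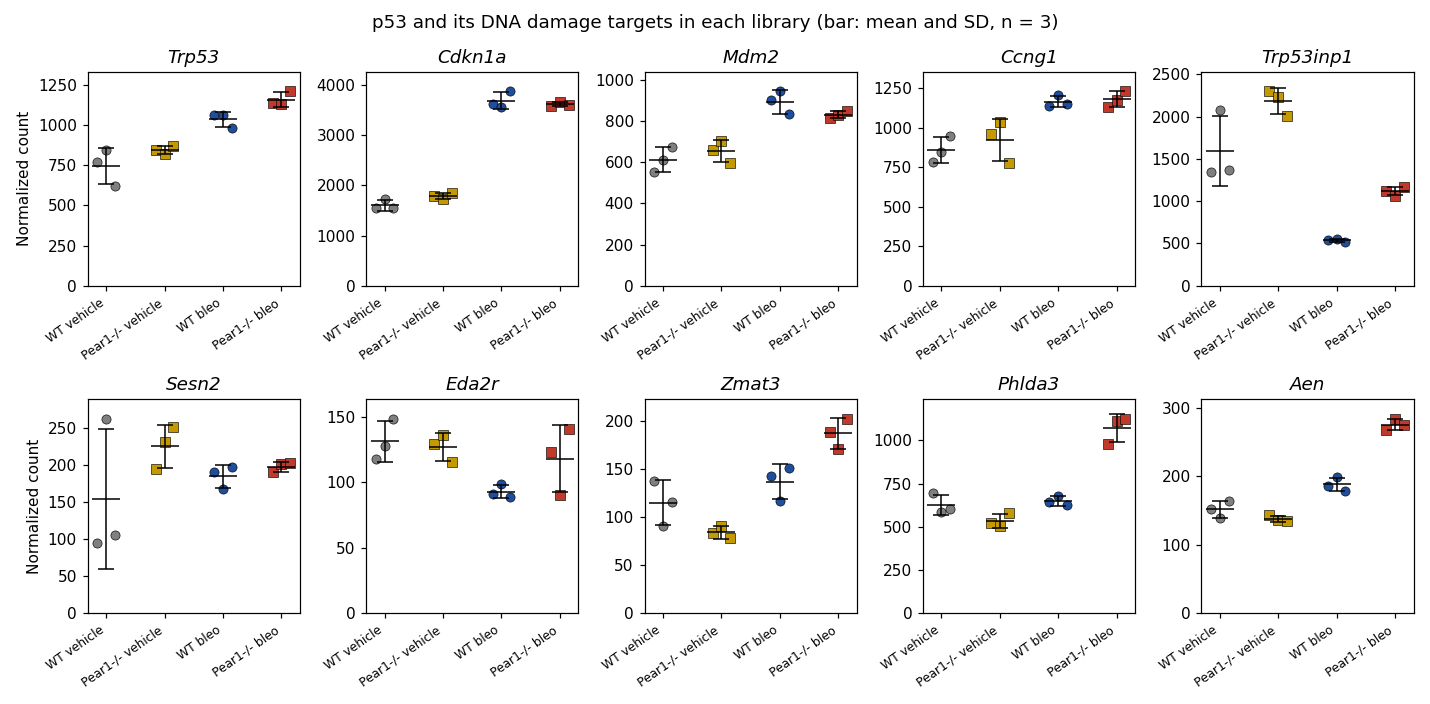
Normalized counts of the 10 genes (y axes, from 0) in each of the 12 libraries, by group (x axes), with the group mean and SD as bars. Cdkn1a lies between 3564 and 3878 in both bleo groups, Phlda3, Zmat3 and Aen are highest in Pear1-/- bleo, and WT vehicle replicate 2 is the high WT vehicle point for Trp53inp1 and Sesn2.

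Cdkn1a (ENSMUSG00000023067, chr17:29090976-29100727, plus strand, GRCm38) had 1547, 1723 and 1541 normalized counts in WT vehicle and 3633, 3564 and 3878 in WT bleo. It had 1789, 1731 and 1860 in Pear1-/- vehicle and 3594, 3670.4 and 3608 in Pear1-/- bleo. Every bleo library lay above every vehicle library, and the bleo groups of both genotypes overlapped. Bleo shifted it by 1.21 on the log2 scale in WT (standard error 0.068, adjusted p = 1.06e-11) and by 1.02 in Pear1-/- (standard error 0.068, adjusted p = 2.07e-10). The log2 difference between the bleo groups was -0.04, with a 95% interval from -0.18 to 0.10. The difference of the responses was -0.20 on the log2 scale (adjusted p = 0.117), but without WT vehicle replicate 2 it was -0.33 (adjusted p = 0.000237). Of the Cdkn1a exons, 273 bases are shared with an unclassified gene model on the opposite strand, AC167363.2, and the kit does not mark strand, so reads of the pair cannot be told apart there.

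Trp53 (ENSMUSG00000059552, chr11:69580359-69591873, plus strand) rose modestly. It ranged from 622 to 846 normalized counts in WT vehicle and from 981 to 1065 in WT bleo, and the groups did not overlap. In the Pear1-/- libraries it ranged from 819 to 868 with vehicle and from 1129 to 1211 with bleo. Bleo shifted it by 0.49 in WT (standard error 0.088, adjusted p = 7.54e-05) and by 0.46 in Pear1-/- (standard error 0.087, adjusted p = 0.000148) on the log2 scale, and the difference of these responses was -0.03 (adjusted p = 0.895). It was -0.21 (adjusted p = 0.0603) without WT vehicle replicate 2.

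Mdm2 (ENSMUSG00000020184, chr10:117688875-117710758, minus strand) and Ccng1 (ENSMUSG00000020326, chr11:40748552-40755311, minus strand), the feedback genes, moved by similar amounts. Mdm2 was at 553 to 677 normalized counts in WT vehicle and 833 to 945 in WT bleo, and at 597 to 705 and 815 to 848 in the Pear1-/- groups. Its log2 fold change was 0.55 (adjusted p = 9.81e-06) in WT and 0.35 (adjusted p = 0.00115) in Pear1-/-. Ccng1 was at 783 to 948 normalized counts in WT vehicle and 1137 to 1203 in WT bleo, and at 774 to 1033 and 1129 to 1229.6 in the Pear1-/- groups. Its log2 fold changes were 0.45 (adjusted p = 0.000305) in WT and 0.36 (adjusted p = 0.00247) in Pear1-/-, the latter 0.24 (adjusted p = 0.0321) without Pear1-/- vehicle replicate 3. For neither gene did bleo and vehicle libraries overlap in either genotype. The bleo groups of both genotypes overlapped, with a log2 difference of -0.12 for Mdm2 (95% interval -0.29 to 0.05) and of 0.01 for Ccng1 (95% interval -0.19 to 0.20).

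Trp53inp1, whose product promotes p53-dependent death and autophagy, went the other way. The gene (ENSMUSG00000028211, chr4:11156431-11174379, plus strand) had 1345, 2074 and 1369 normalized counts in WT vehicle and 537, 551 and 521 in WT bleo. It had 2301, 2236 and 2011 in Pear1-/- vehicle and 1126, 1066 and 1171 in Pear1-/- bleo. Vehicle libraries were above bleo libraries within each genotype, and Pear1-/- bleo was above WT bleo in every library. The log2 fold change with bleo was -1.56 in WT (standard error 0.13, adjusted p = 3.75e-08) and -0.96 in Pear1-/- (standard error 0.13, adjusted p = 8.21e-06). Without WT vehicle replicate 2, the library at 2074, the WT value was -1.26.

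Sesn2 (ENSMUSG00000028893, chr4:132492032-132510501, minus strand) had 94.6, 263 and 105 normalized counts in WT vehicle and 190, 167 and 197 in WT bleo. It had 194, 231 and 251 in Pear1-/- vehicle and 190.0, 201 and 202 in Pear1-/- bleo. WT vehicle replicate 2 was above all bleo libraries and both other WT vehicle libraries were below them. With all libraries the log2 fold change in WT was 0.25 (standard error 0.32, adjusted p = 0.514), and without replicate 2 it was 0.96 (adjusted p = 1.37e-08), so the call turned on this library. In Pear1-/- it was -0.18 (adjusted p = 0.625).

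Eda2r (ENSMUSG00000034457, chrX:97333840-97377216, minus strand), a death receptor of the TNF receptor family, was at 118, 128 and 149 normalized counts in WT vehicle and 90.9, 98.9 and 89.1 in WT bleo. In Pear1-/- it was at 130, 136 and 116 with vehicle and 123, 90.3 and 141 with bleo. The WT groups did not overlap, with a log2 fold change of -0.49 (adjusted p = 0.00977), which became -0.39 (adjusted p = 0.0536) without WT vehicle replicate 3. The Pear1-/- groups overlapped, with a log2 fold change of -0.11 (adjusted p = 0.539). The difference of the responses was 0.38 (adjusted p = 0.180).

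**Figure D2:**
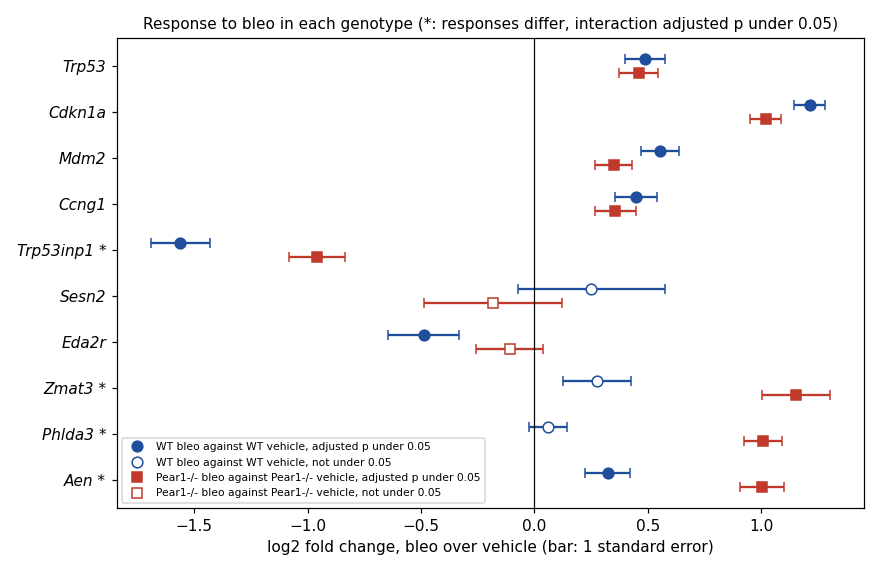
Log2 fold change of bleo over vehicle (x axis, bars 1 standard error) for each gene (y axis) in WT (circles) and Pear1-/- (squares), filled where adjusted p is under 0.05 and starred where the responses differ. Trp53, Cdkn1a, Mdm2 and Ccng1 are right of 0 in both genotypes, and Zmat3, Phlda3 and Aen are near 1 in Pear1-/- and under 0.5 in WT.

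Phlda3, Zmat3 and Aen rose more with bleo in Pear1-/- than in WT. Phlda3 (ENSMUSG00000041801, chr1:135766119-135769136, plus strand), whose product competes with the kinase Akt for membrane lipids, had 694, 588 and 599.9 normalized counts in WT vehicle and 645, 678 and 624 in WT bleo. It had 519, 504 and 582 in Pear1-/- vehicle and 979, 1109.7 and 1127 in Pear1-/- bleo. WT bleo overlapped WT vehicle, and Pear1-/- bleo lay above every other library. The log2 fold change was 0.06 in WT (standard error 0.084, adjusted p = 0.528) and 1.01 in Pear1-/- (standard error 0.083, adjusted p = 4.87e-09).

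Zmat3 (ENSMUSG00000027663, chr3:32334792-32366014, minus strand), a zinc-finger RNA-binding protein, had 137, 90.3 and 116 normalized counts in WT vehicle and 142, 116 and 151 in WT bleo. It had 83.3, 90.9 and 77.5 in Pear1-/- vehicle and 188, 170.2 and 202 in Pear1-/- bleo. WT groups overlapped and Pear1-/- groups did not. The log2 fold change was 0.28 in WT (standard error 0.15, adjusted p = 0.110) and 1.15 in Pear1-/- (standard error 0.15, adjusted p = 1.91e-06). Without WT vehicle replicate 1 the WT value was 0.43 (adjusted p = 0.0229), without WT bleo replicate 2 it was 0.42 (adjusted p = 0.0223) and with no filter on low counts 0.42 (adjusted p = 0.0111).

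Aen (ENSMUSG00000030609, chr7:78895854-78911209, plus strand), an exonuclease of p53-dependent death, had 153, 139 and 164 normalized counts in WT vehicle and 186, 199 and 179 in WT bleo. It had 143, 135 and 135 in Pear1-/- vehicle and 268, 285 and 275 in Pear1-/- bleo. Bleo libraries were above vehicle libraries in both genotypes. The log2 fold change was 0.32 in WT (standard error 0.10, adjusted p = 0.00840) and 1.003 in Pear1-/- (standard error 0.097, adjusted p = 4.28e-08). With total-count scaling the WT value was 0.22 (adjusted p = 0.0919), and on the WT libraries alone it was 0.29 (adjusted p = 0.0521). Sesn2, Eda2r, Zmat3 and Aen rested on 71 to 331 reads per library, and the other genes on 456 or more.

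Whether Pear1-/- and WT cells differed after bleo was asked directly between the bleo groups. Trp53inp1 was 2.07-fold, Phlda3 1.64-fold, Aen 1.45-fold and Zmat3 1.35-fold higher in Pear1-/- bleo, and the other 6 genes did not pass the test. Of all genes 22.1% were higher and 24.0% lower. The log2 differences were 1.05 for Trp53inp1 (standard error 0.13, adjusted p = 6.82e-06), 0.71 for Phlda3 (standard error 0.082, adjusted p = 8.53e-07), 0.54 for Aen (standard error 0.093, adjusted p = 9.82e-05) and 0.44 for Zmat3 (standard error 0.14, adjusted p = 0.0150). Only Trp53inp1 was past a fold of 2, against 15.0% of all genes. The Zmat3 call was lost without WT bleo replicate 2 (0.32, adjusted p = 0.105) and without Pear1-/- bleo replicate 3 (0.37, adjusted p = 0.0733), while Eda2r, at 0.33 (adjusted p = 0.0889), was called at 0.48 (adjusted p = 0.0167) without Pear1-/- bleo replicate 2. Fitted on the bleo libraries alone, edgeR called 7 of the 10 genes, since Trp53, Mdm2 and Eda2r were added at log2 differences of 0.15, -0.11 and 0.33. In that fit 66.0% of the 14922 genes tested were called.

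Whether the response to bleo itself differed between the genotypes was tested by the interaction of genotype and bleo. It was called for 4 of the 10 genes, each with the response shifted upward in Pear1-/-, where 17.8% of all genes were shifted upward and 19.3% downward. With total-count scaling 4069 genes of the table were shifted upward and 2509 downward, in place of 3109 and 3353. The difference of the log2 fold changes was 0.95 for Phlda3 (standard error 0.12, adjusted p = 4.68e-06), 0.88 for Zmat3 (standard error 0.21, adjusted p = 0.00313), 0.68 for Aen (standard error 0.14, adjusted p = 0.000852) and 0.60 for Trp53inp1 (standard error 0.18, adjusted p = 0.0148). None of the differences was past a fold of 2 together with the adjusted p, against 15.5% of all genes. An unadjusted p under 0.05 was found for 4 of the 10 genes in edgeR and 5 in DESeq2's Wald test. Of all 17418 genes, 7949 and 7408 had one in these tests. Phlda3, Zmat3 and Aen kept their call in all 20 other settings tried, and Trp53inp1 in 11 of 20, with values from 0.29 to 0.74. Without WT vehicle replicate 2 there were 7 calls, Phlda3 0.91, Zmat3 0.94, Aen 0.66 and Trp53inp1 0.29 upward, and Cdkn1a -0.33, Mdm2 -0.28 and Sesn2 -1.16 downward, the last of them past a fold of 2 (adjusted p = 6.50e-08). Of the 20405 genes tested in that fit, 20.4% were shifted upward and 26.0% downward. Eda2r was then at 0.31 (adjusted p = 0.204) and Ccng1 at -0.16 (adjusted p = 0.232).

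**Figure D3:**
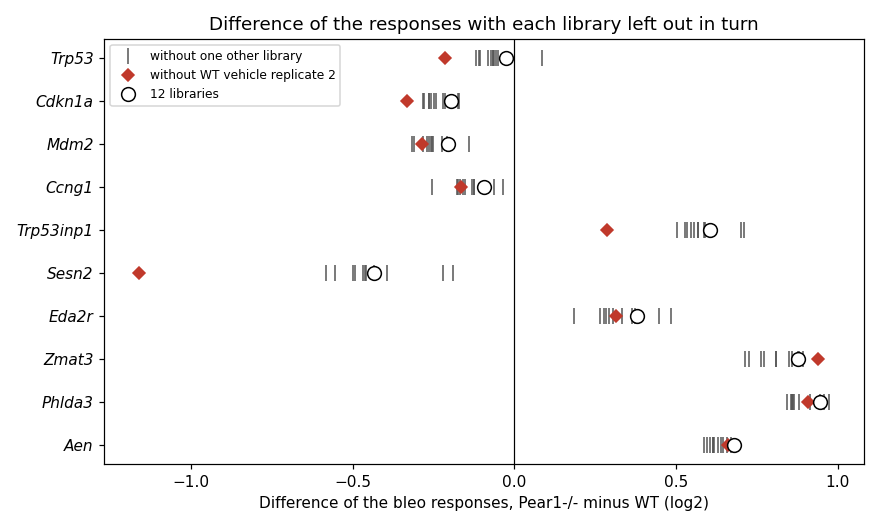
Difference of the log2 responses to bleo, Pear1-/- minus WT (x axis), for each gene (y axis) with 12 libraries (circles), without WT vehicle replicate 2 (diamonds) and without each other library in turn (ticks). Phlda3, Zmat3 and Aen keep to the right of 0 throughout, and Sesn2 and Trp53inp1 move most when WT vehicle replicate 2 is left out, to -1.16 and 0.29.

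Without bleo, 1 of the 10 genes was called between the genotypes. Trp53inp1 was called higher in Pear1-/- vehicle than in WT vehicle (log2 difference 0.45, adjusted p = 0.0448), in groups that overlapped through replicate 2, and 1.95% of all genes were called higher. Of all genes called, 340 were higher and 921 lower, and with total-count scaling 139 and 2049. None of the 10 genes was past a fold of 2, against 3.32% of all genes. Of the 10, 4 had an unadjusted p under 0.05 in edgeR and 5 in DESeq2's Wald test, beside 5473 and 4759 of all 17418 genes. Without WT vehicle replicate 2, Trp53inp1 (0.75), Sesn2 (1.23), Trp53 (0.35) and Cdkn1a (0.28) were called higher and Zmat3 (-0.51) and Phlda3 (-0.21) lower, where 25.5% of all genes then tested were higher and 29.7% lower. Without any 1 of the other vehicle libraries, no gene of the table was called by edgeR, although between 2961 and 5876 had an unadjusted p under 0.05, and DESeq2's Wald test on all libraries called 1484.

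Among the 10 genes, levels can be ordered only per length of the annotated exons. Per kilobase, Cdkn1a had the highest mean in every group, at 451 ± 29.1 (SD, n = 3) normalized counts per kilobase in WT vehicle and 1039 ± 46.5 in WT bleo, and at 505 ± 18.1 and 1020.0 ± 11.4 in the Pear1-/- groups. In WT vehicle its libraries (434 to 485) overlapped those of Phlda3 (377 to 445). Phlda3 came next in every group, at 402 ± 37.2 and 416 ± 17.6 in WT vehicle and WT bleo and 343 ± 26.5 and 688 ± 51.7 in the Pear1-/- groups, although in Pear1-/- vehicle its libraries overlapped those of Trp53inp1 (337 ± 23.5), which was next in order. Trp53inp1 was the third gene by level in both vehicle groups and dropped to rank 6 in WT bleo, at 82.8 ± 2.27, and to rank 5 in Pear1-/- bleo, at 173 ± 8.11. In WT vehicle, Trp53inp1 (246 ± 64.0) and Ccng1 (244 ± 23.7) did not differ beyond their spread, nor did Trp53inp1 and Mdm2 (164 ± 3.27) in Pear1-/- bleo. Aen, Eda2r and Zmat3 held the last ranks in every group, with the mean of Zmat3 lowest at 7.34 ± 0.589 to 16.3 ± 1.40. Libraries of Eda2r and Zmat3 overlapped in Pear1-/- bleo, and in WT vehicle those of Aen overlapped those of Sesn2 and Eda2r.

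Other targets of p53, listed by role, moved in both directions as the 10 genes did. The counts of each list stand beside the shares of all genes given above, 31.4% higher and 36.5% lower in WT bleo and 29.1% higher and 33.1% lower in Pear1-/- bleo, and with few genes a list nothing particular is read from them. Of 7 targets in cell cycle arrest, 3 were higher and 1 lower in WT bleo, and 5 higher and 1 lower in Pear1-/- bleo, with median log2 fold changes of 0.28 and 0.60. Plk3, a stress kinase, rose by a log2 fold change of 1.20 (adjusted p = 1.41e-10) in WT, and Btg2, an antiproliferative gene, rose by 0.60 (adjusted p = 4.28e-08) in Pear1-/-. Gadd45a, a stress sensor induced by damage, fell in WT (log2 fold change -0.37, adjusted p = 0.00404), a call that was lost at -0.22 (adjusted p = 0.0851) without WT vehicle replicate 2. Without that library 5 of the 7 were higher in WT.

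Of 11 targets in cell death, 6 were higher and 1 lower in WT bleo, and 5 higher and 3 lower in Pear1-/- bleo. In WT 8 were higher and 1 lower without WT vehicle replicate 2. Bax, the pore-forming death effector, went from 324 to 414 normalized counts in WT vehicle to 755 to 825 in WT bleo, and from 335 to 391 to 704 to 738 in the Pear1-/- groups. Its log2 fold change was 1.13 (adjusted p = 1.37e-09) in WT and 0.98 (adjusted p = 1.25e-08) in Pear1-/-, and the difference of the responses was -0.14 (adjusted p = 0.376). The WT value was 1.30 without WT vehicle replicate 2. Fas, the death receptor, fell in both, with log2 fold changes of -0.99 (adjusted p = 1.26e-05) and -0.91 (adjusted p = 2.26e-05), and of -0.68 in WT without WT vehicle replicate 2. Bbc3, the gene of Puma, fell in Pear1-/- (-0.49, adjusted p = 0.00146) and did not pass the test in WT (0.17, adjusted p = 0.214). That difference of responses was -0.66 (adjusted p = 0.00475), and -0.84 (adjusted p = 9.15e-06) without WT vehicle replicate 2.

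Of 6 targets in DNA repair, 4 were lower and 1 higher in WT bleo and 2 lower and 1 higher in Pear1-/- bleo. The WT counts were 4 lower and 1 higher without WT vehicle replicate 2 as well. Xpc, which recognises damaged bases, fell by a log2 fold change of -0.67 (adjusted p = 1.20e-05) in WT and -0.61 (adjusted p = 4.01e-05) in Pear1-/-. Rrm2b, the p53-controlled subunit of ribonucleotide reductase, fell by -0.63 (adjusted p = 0.000124) and -1.22 (adjusted p = 6.54e-08).

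Of 9 targets in metabolism or encoding secreted proteins, 6 were higher and 1 lower in WT bleo and 5 higher and 1 lower in Pear1-/- bleo, with medians of 0.56 and 0.34. The WT counts were 8 higher and 1 lower without WT vehicle replicate 2. Gdf15, a stress-induced secreted cytokine, had 349, 310 and 346 normalized counts in WT vehicle and 1569.6, 1565 and 1592 in WT bleo, but 499, 542 and 520 in Pear1-/- bleo against 294, 287 and 385 in Pear1-/- vehicle. Its groups did not overlap in either genotype, and its response was 1.55 smaller on the log2 scale in Pear1-/- (interaction -1.55, adjusted p = 5.10e-08, and -1.57 without WT vehicle replicate 2). Ddit4, an mTORC1 inhibitor, had 229, 238 and 228 normalized counts in WT bleo and 747, 825 and 783 in Pear1-/- bleo, a log2 difference of 1.75 (adjusted p = 4.80e-06). Without WT vehicle replicate 2 the interaction of Ddit4 was 0.74 rather than 1.25 (adjusted p = 3.74e-05 and 0.00332). Ak1, adenylate kinase, rose by 1.40 (adjusted p = 7.33e-10) in Pear1-/-, and was 0.91 higher there than in WT bleo (adjusted p = 4.01e-07).

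**Figure D4:**
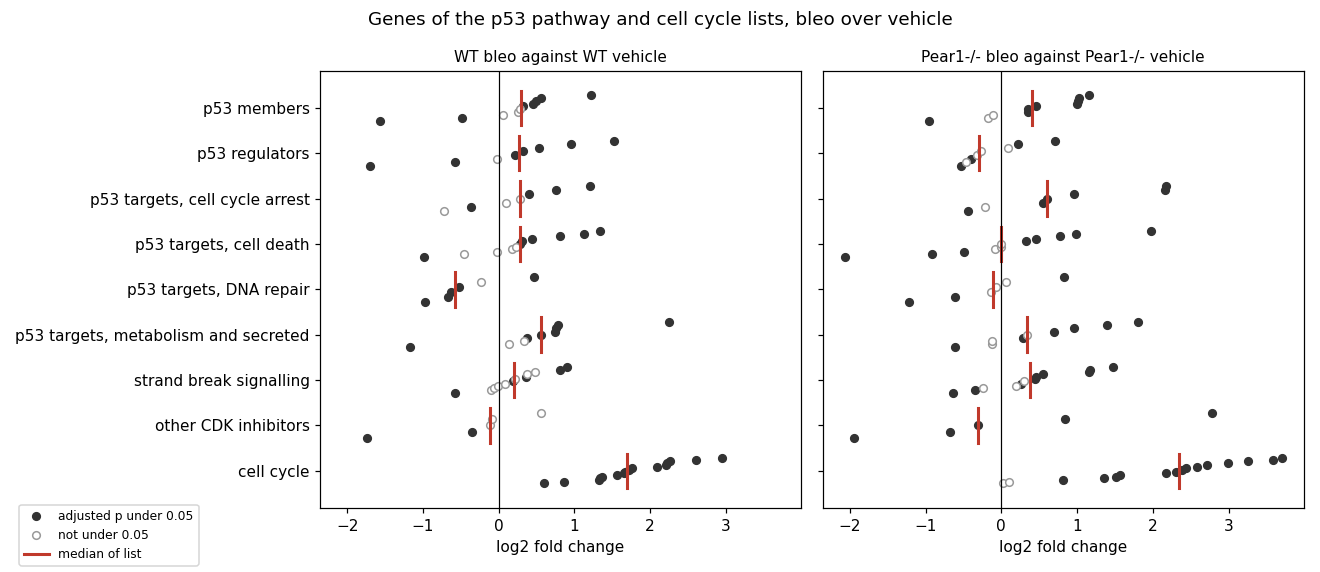
Log2 fold change of bleo over vehicle (x axes) of the tested genes of each p53 pathway or cell cycle list (y axis) in WT (left) and Pear1-/- (right), filled where adjusted p is under 0.05, with the median of each list as a bar. Among the lists plotted, which leave out the cell type markers, the cell cycle list lies furthest right in both, at medians of 1.69 and 2.35, and the DNA repair targets have medians of -0.57 and -0.10.

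Of a list of regulators of p53, which also holds Trp63, a paralog of Trp53 that fell in WT bleo (-1.70, adjusted p = 0.000430), 8 genes were tested. In WT bleo 5 were higher and 2 lower, and in Pear1-/- bleo 2 were higher and 2 lower. With WT vehicle replicate 2 left out, 9 were tested, 6 higher and 3 lower in WT. Hipk2, a kinase that phosphorylates p53, rose from 123 to 167 normalized counts in WT vehicle to 421 to 422 in WT bleo, a log2 fold change of 1.52 (adjusted p = 2.06e-09), and by 0.70 (adjusted p = 7.29e-05) in Pear1-/-, with an interaction of -0.81 (adjusted p = 0.00117). Usp7, a deubiquitinase of Mdm2 and p53, rose by 0.95 in WT (adjusted p = 6.46e-09), with an interaction of -0.87 (adjusted p = 9.83e-06). Mdm4, the partner of Mdm2, rose in WT (0.33, adjusted p = 0.000221) and fell in Pear1-/- (-0.40, adjusted p = 3.30e-05). Of 12 genes listed for the handling of strand breaks and of bleomycin, 4 were higher and 1 lower in WT bleo and 7 higher and 2 lower in Pear1-/- bleo, and without WT vehicle replicate 2 there were 5 higher and 1 lower in WT. H2afx, the histone marked at breaks, was higher in both (0.90, adjusted p = 1.80e-06, and 1.16, adjusted p = 2.76e-08). Blmh, the hydrolase that inactivates bleomycin and no signalling gene, was called higher in both as well (0.18, adjusted p = 0.0460, and 0.55, adjusted p = 5.95e-06). It was 0.50 higher in Pear1-/- bleo than in WT bleo (adjusted p = 2.96e-05). The interaction of Blmh was 0.36 (adjusted p = 0.0146), a call that was lost at 0.22 (adjusted p = 0.0830) without WT vehicle replicate 2. Of 9 tested genes in a list of relatives of the 10 genes, paralogs but for Eda, a ligand of Eda2r that fell in both (-2.41, adjusted p = 9.50e-09, and -2.87, adjusted p = 3.51e-09), 2 were higher and 4 lower in WT bleo, and 1 higher and 7 lower in Pear1-/- bleo, with medians of -0.04 and -0.40, and without WT vehicle replicate 2 there were 3 higher and 4 lower in WT.

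Genes of the cell cycle rose beside Cdkn1a. Of 16, all were higher in WT bleo, also without WT vehicle replicate 2, and 14 in Pear1-/- bleo, with 14 and 13 past a fold of 2. Ccnb2, a mitotic cyclin, went from 32.1 to 49.7 normalized counts in WT vehicle to 251 to 264 in WT bleo, and from 36.0 to 53.8 to 557 to 597 in the Pear1-/- groups. Its log2 fold changes were 2.61 (adjusted p = 4.74e-12) and 3.70 (adjusted p = 1.26e-14). Of 5 other inhibitors of cyclin-dependent kinases tested, 2 were lower in WT bleo, with or without WT vehicle replicate 2, and 2 were higher and 3 lower in Pear1-/- bleo. Cdkn1c fell in both (-1.74, adjusted p = 1.82e-08, and -1.94, adjusted p = 1.99e-09), and Cdkn2c fell in WT (-0.35, adjusted p = 0.0141) and rose in Pear1-/- (0.84, adjusted p = 2.65e-06).

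Markers of other cells moved with the same contrasts. All 8 leukocyte markers were higher in WT bleo than in WT vehicle (median log2 fold change 1.84), and all 8 were lower in Pear1-/- bleo than in WT bleo (median -0.98). Of 10 macrophage markers, 9 were higher in WT bleo and 9 lower in Pear1-/- bleo than in WT bleo, and their sum ran from 17958 to 22036 in WT vehicle and 148920.0 to 149712 in WT bleo, and from 21548 to 23114 and 61139.5 to 63503 in the Pear1-/- groups. The sum of 10 fibroblast markers, the collagens Col1a1, Col1a2 and Col3a1 among them, was 152197 to 170568 in WT vehicle and 112141 to 113209 in WT bleo, and 169011 to 175388 and 289125 to 298679 in the Pear1-/- groups. Of these 10 markers, 8 were lower and 2 higher in WT bleo than in WT vehicle, 7 were lower and 3 higher in Pear1-/- bleo than in Pear1-/- vehicle (median log2 fold change -1.19), and 5 were higher and 1 lower in Pear1-/- bleo than in WT bleo. The sum is carried by the 3 collagens, with means of 142173, 63672 and 72242 normalized counts for Col1a1, Col1a2 and Col3a1 in Pear1-/- bleo. Epithelial RNA fell with bleo, and the sum of 8 epithelial markers was 38752 to 56696 in WT vehicle and 13830 to 14048 in WT bleo, and 53699 to 62021 and 6147 to 6310.1 in the Pear1-/- groups. Of these 8 markers, 6 were lower and 2 higher in WT bleo, and 7 lower and 1 higher in Pear1-/- bleo. No marker of the 4 lists was at or under 3 counts throughout a group. The part of this shift in the changes of the p53 genes was not tested, and it moved with the bleo response, the difference between the bleo groups and the interaction, in which all 8 leukocyte markers (median -1.26) and 9 of 10 macrophage markers (median -1.35) were shifted downward and 5 of 10 fibroblast markers upward and 1 downward. In the interaction without WT vehicle replicate 2, all 8 leukocyte (median -1.54) and 9 of 10 macrophage markers (median -1.42) were shifted downward. Of the 10 fibroblast markers, 6 were then shifted upward and 3 downward. In WT bleo without WT vehicle replicate 2, all 8 leukocyte and 9 of 10 macrophage markers were higher, with medians of 2.12 and 3.05, and 8 of 10 fibroblast and 6 of 8 epithelial markers were lower, with medians of -1.15 and -0.96. In WT vehicle replicate 2, the sum of 4 neutrophil markers was 14854, against 4266 and 4303 in the other WT vehicle libraries and 13911 to 17605 in Pear1-/- vehicle. With bleo that sum was 1383 to 1519 in WT and 2042 to 2144 in Pear1-/-, and 3 of the 4 neutrophil markers were lower in each genotype, with medians of -2.53 and -2.93. All 6 endothelial markers were lower with bleo in both genotypes (medians -0.78 and -0.83). Of 6 lymphocyte markers, 2 were higher and 3 lower in WT bleo, and 4 were lower in Pear1-/- bleo. Of 3 mesothelial markers, 2 were lower in WT bleo and 1 in Pear1-/- bleo. In WT bleo without WT vehicle replicate 2, 1 neutrophil marker was higher and 3 lower (median -1.57), 5 endothelial markers were lower (median -0.58), 3 lymphocyte markers were higher and 3 lower (median 0.11), and 2 mesothelial markers were lower.

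**Figure D5:**
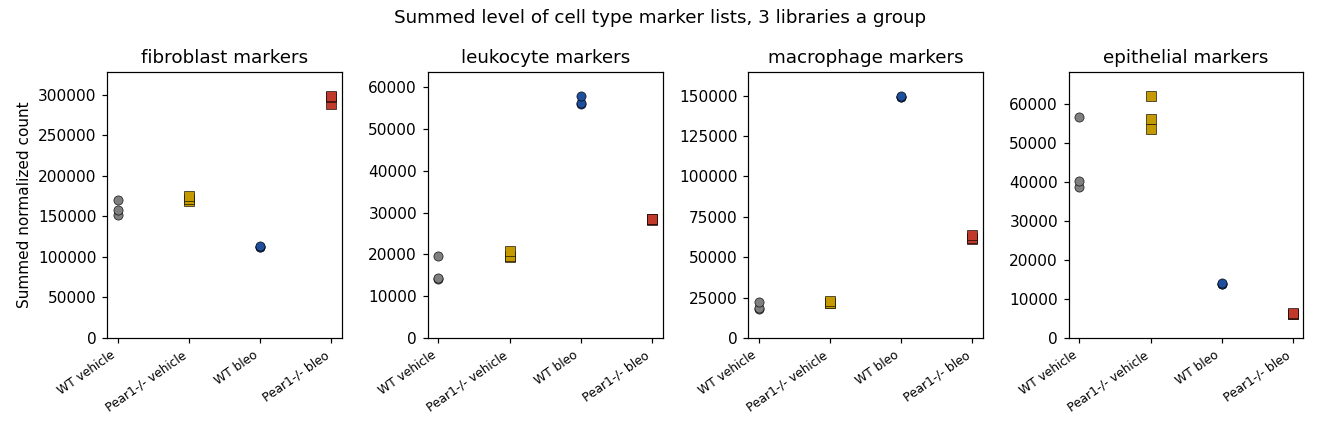
Summed normalized counts (y axes, from 0) of the fibroblast, leukocyte, macrophage and epithelial marker lists in the 3 libraries of each group (x axes). Leukocyte and macrophage sums are highest in WT bleo, at up to 57883 and 149712, and the fibroblast sum, carried by 3 collagens, is highest in Pear1-/- bleo, although 7 of its 10 markers were lower there than in Pear1-/- vehicle.

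The genes whose log2 levels ran most like those of the 10 genes, by Pearson correlation over the 12 libraries among 10693 genes, are given as a description. For Cdkn1a they were Slc25a5, Cfl1 and H2afz (r = 0.998, 0.998 and 0.997), for Phlda3 Camkk2, Anapc16 and Actn1 (r = 0.980, 0.979 and 0.977), for Aen Col12a1, Ppic and Tagln2 (r = 0.994, 0.994 and 0.992) and for Zmat3 Ect2 (r = 0.973). The closest gene was Srp14 for Trp53 (r = 0.986), Cbfb for Mdm2 (r = 0.981), St13 for Ccng1 (r = 0.981) and Cdpf1 for Sesn2 (r = 0.962). The genes most like Trp53inp1 were Slfn4, Xbp1 and Sdc4 (r = 0.995, 0.994 and 0.993), and Eda2r had the weakest likeness, to Bbs7 (r = 0.900). The 12 points share 4 group means and the same libraries.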

How the data were processed

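Per the labels and the study's methods, CD140a+ lung cells were sorted, RNA was amplified to full-length cDNA with SMART-Seq v4, which does not mark strand, and reads were aligned to GRCm38 (mm10) with HISAT2. The counting program was not given in the sources used here. The authors deposited whole-number read counts per gene and a second table of linear normalized signal, which equals the counts divided by one size factor per library. All sample columns were mapped to labelled samples. Counts were tested with edgeR 4.0.16 (quasi-likelihood, robust, TMM, filterByExpr) in R 4.3.3, in one fit of 12 libraries with a mean per group, where the study used limma. Adjusted p is two-sided, Benjamini-Hochberg over all tested genes, with a threshold of 0.05. Intervals use the quasi-likelihood standard error. Without the robust option the same fit is an alternative chosen after seeing the data. The script was tested on simulated data. Alternatives used DESeq2 1.42.0, limma 3.58.1 on log2(normalized + 1), other scalings and filters, and each library left out. Coordinates are from GENCODE M21, and per-length levels divide by the union of its exons. The 10 genes and all lists were chosen with earlier results of these data known. Beyond the 10, each list contributed, among genes averaging 3 or more log2 CPM, at most the 2 that rose and the 2 that fell most in a comparison, and Blmh, Ptprc, Pdgfra and Pear1 always. The values of a gene so named were also given for other comparisons. Collagens were named from the marker list. Trp63 and Eda, which the rule did not pick, were named because their lists' titles do not describe them. Some genes are not reported here.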

Additional observations from a re-analysis of the deposited data

Results flagged for a closer look

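For 4 of the 10 genes the response to bleo differed between the genotypes by edgeR's interaction test, each shifted upward in Pear1-/-, where 17.8% of all genes were shifted upward and 19.3% downward. The difference, Pear1-/- minus WT, was 0.95 on the log2 scale for Phlda3 (adjusted p = 4.68e-06), 0.88 for Zmat3 (adjusted p = 0.00313), 0.68 for Aen (adjusted p = 0.000852) and 0.60 for Trp53inp1 (adjusted p = 0.0148). In Pear1-/- cells the log2 fold changes with bleo were 1.01 for Phlda3, 1.15 for Zmat3 and 1.003 for Aen, beside 1.02 for Cdkn1a. Trp53inp1 fell in both genotypes, and less far in Pear1-/-. There were 4 calls upward and 3 downward without WT vehicle replicate 2, with Trp53inp1 at 0.29, and over 20 other settings the call of Trp53inp1 was made in 11. In the same interaction all 8 leukocyte markers (median -1.26) and 9 of 10 macrophage markers (median -1.35) were shifted downward, and their part in these differences was not tested.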

How the results depend on the processing

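Of 150 values of the 10 genes computed under other settings in each of the WT bleo, Pear1-/- bleo and bleo group comparisons, 142, 149 and 140 kept both direction and side of the threshold. Between the vehicle groups 130 of 150 did, and for the interaction 185 of 200. Unless a cause is named, the cause was not tested. No filter on low counts gave 19714 called genes in WT bleo and 5676 between the vehicle groups, with 40760 genes tested. The 4 genes past a fold of 2 in Pear1-/- bleo became 2 with DESeq2 size factors, with a mean of at least 1 CPM, with DESeq2's Wald test and with only the libraries of the 2 groups compared, and 1 to 4 without 1 library (1 without Pear1-/- vehicle replicate 2 or Pear1-/- bleo replicate 2, 2 without Pear1-/- vehicle replicate 1). Between the bleo groups alone, 7 genes were called in place of 4, and 66.0% of all genes tested in that fit. Between the vehicle groups the 1 call became 3 with total counts, 0 without the robust option (chosen after seeing the data) and 0 when fitted on these 6 libraries. The 1261 called genes of the table became 2188, 784 and 0. In these 3 fits 4, 4 and 3 of the 10 genes had an unadjusted p under 0.05 in edgeR, beside 5808, 5508 and 3189 of all genes tested. Without 1 library, 0 to 6 of the 10 genes (past a fold of 2, 0 to 1) and 0 to 11281 genes of the table were called. The 6, 1 and 11281 (of 20405 tested) came without WT vehicle replicate 2. Leaving out each of the other 5 vehicle libraries gave 0. In those fits 1 to 4 of the 10 genes had an unadjusted p under 0.05 in edgeR, beside 2961 to 5876 of all genes. For the interaction, 3 to 7 genes were called without 1 library, and past a fold of 2 there were 0 to 1 (7 and 1 without WT vehicle replicate 2), with 2 by total counts. Total counts moved the median log2 fold change of all genes from -0.0039 to -0.15 between the vehicle groups and from -0.0012 to 0.15 for the interaction, and the share of calls that were higher from 27.0% to 6.35% and from 48.1% to 61.9%. Under that scaling the sign turned for Phlda3 in WT bleo (-0.040), Mdm2 (-0.062) and Ccng1 (-0.052) between the vehicle groups, and Trp53 (0.12) and Ccng1 (0.062) in the interaction. Without a filter Eda2r was 0.047 between the vehicle groups. Without 1 library, Eda2r ran from -0.26 to 0.037 in Pear1-/- bleo and from -0.12 to 0.053 between the vehicle groups, Ccng1 from -0.030 to 0.023 between the bleo groups, and Trp53 from -0.21 to 0.085 in the interaction. None of these reversed values was called. The share of higher calls also moved to 32.4% in WT bleo and 40.2% between the vehicle groups without a filter, and to 46.0% between the vehicle groups with limma. Libraries of different groups that share a replicate number did not deviate together (r of deviations -0.15 to 0.10, 18 pairs), and most libraries correlated best with one of another number, so the numbers do not pair libraries, and a replicate block in the fit gave calls for 7, 8, 4, 1 and 4 genes in the 5 comparisons, as without it. Zmat3, Eda2r, Aen and Sesn2 rested on the fewest reads, 71 to 331 per library, but the standard error did not follow depth alone, since in WT bleo it was 0.10 for Aen and 0.32 for Sesn2.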
